A study of Mus musculus with 6 samples.

Results

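The genes followed here are 10 parts of the bone morphogenetic protein (BMP) and transforming growth factor beta (TGF-beta) pathway in mouse retinal vascular endothelial cells (VECs): the receptors Acvrl1, Tgfbr2 and Bmpr2, the co-receptor Eng, the signal-carrying SMADs Smad1 and Smad5, the inhibitory SMADs Smad6 and Smad7, and the target genes Id1 and Id3. They were taken by gene symbol from the deposited table, which lists 55487 genes. The list was drawn up with earlier results of these data known. Ligands of the family bring a type II receptor such as Bmpr2 or Tgfbr2 together with a type I receptor such as Acvrl1, also called ALK1, and the endothelial co-receptor endoglin, made from Eng, presents BMP ligands to it. The activated type I receptor phosphorylates SMADs, which enter the nucleus with Smad4 and switch on genes such as Id1, Id3, Smad6 and Smad7, and the last pair feed back on the receptors. Loss of ACVRL1 or ENG causes hereditary haemorrhagic telangiectasia, a disease of arteriovenous malformations, and mutations in BMPR2 cause heritable pulmonary arterial hypertension.

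The study asked how the clock gene Bmal1 acts in VECs of the growing retina, and RNA was sequenced from cells sorted at P7.5, that is, 7.5 days after birth. The 3 mutant animals, called Bmal1;CKO, were Bmal1 FL/FL and carried tdTomato FL/+ and the transgene Pdgf-icreER, the 3 controls carried tdTomato FL/+ and Pdgf-icreER without floxed Bmal1, and all 6 were given tamoxifen from P0.5 to P2.5. Pdgf-icreER gives GFP and, after tamoxifen, Cre activity in endothelial cells, and cells positive for both GFP and tdTomato were sorted. Values are counts divided by a size factor for each library, called normalized counts, from 71145068 to 104017800 reads on genes per library, and libraries keep the numbers of the table, where 1 to 3 are control and 4 to 6 are Bmal1;CKO.

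Bmal1 itself, listed as Arntl, had 1700.4, 3489 and 2928 normalized counts in control libraries 1, 2 and 3 and 1779, 2747 and 2415 in Bmal1;CKO libraries 4, 5 and 6. The groups overlapped (log2 fold change -0.19, SE 0.36, adjusted p = 0.924 from limma-trend), and the deleted exon has no value of its own in the data used here. By droplet digital PCR on sorted endothelial cells, the study reported significantly fewer Bmal1 copies in mutants than in controls. The 15 endothelial markers were found in all 6 libraries, with summed normalized counts of 194254 to 379176 in control and 113180 to 247135 in Bmal1;CKO. Those of the 12 markers of microglia and macrophages were larger, 1607430 to 4687810 in control and 2245220 to 4506990 in Bmal1;CKO, so the fraction sorted as endothelial also held transcripts of microglial genes, at a higher summed level. The microglial sum was 12.4, 7.95 and 9.64 times the endothelial sum in control libraries 1, 2 and 3 and 20.97, 26.7 and 9.08 times in Bmal1;CKO libraries 4, 5 and 6. All 15 endothelial markers were lower and 10 of 12 microglial markers were higher in the mean of the Bmal1;CKO libraries, with 0 of either list at an unadjusted p under 0.05. Of the other retinal cells, 7 of 8 Müller glia markers were higher, 1 of the 8 with an unadjusted p under 0.05, 11 of 12 rod markers were lower, 2 of the 12 under that p, and pericyte markers were split 5 and 5, with 0 under it. Of the 5 astrocyte markers tested, 4 were higher, and of the 8 ganglion cell markers tested 4 were higher and 4 lower, with 0 of either list under that p. Slc1a3 was in both the astrocyte and the Müller glia list. The part of these differences in the results below was not tested beyond the values given.

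To rank the genes, normalized counts were divided by the exon length in kilobases. Id3 stood highest, with 18838 ± 5259 normalized counts per kilobase (SD, n = 6), and Id1 followed with 12258 ± 3789. Both ID genes make small proteins that bind and block basic helix-loop-helix factors, and they lay at the 98.7th and 97.9th percentile of the 14702 protein-coding genes tested. Eng (2591 ± 1009.7) and Acvrl1 (1923 ± 513), the genes of the endothelial BMP receptor pair, came next, at the 88.9th and 85.7th percentile. Smad1 (982 ± 328) and Tgfbr2 (839 ± 284) formed the middle of the order. Smad5 (273 ± 80.6), Smad7 (264 ± 129) and Smad6 (258 ± 77.7) lay close together at the median of protein-coding genes. Bmpr2 was lowest, at 72.2 ± 63.2 per kilobase and the 25.6th percentile, and its exon length of 17983 bases was the longest of the 10. On the level per kilobase, Id3 was above Id1, Id1 above Eng, Acvrl1 above Smad1, Tgfbr2 above Smad5 and Smad6 above Bmpr2 in 6 of 6 libraries. Eng was above Acvrl1 in 5 of 6, Smad1 above Tgfbr2 and Smad5 above Smad7 in 4 of 6, and Smad7 above Smad6 in 2 of 6, so these neighbours did not differ beyond the spread between libraries.

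**Figure D1:**
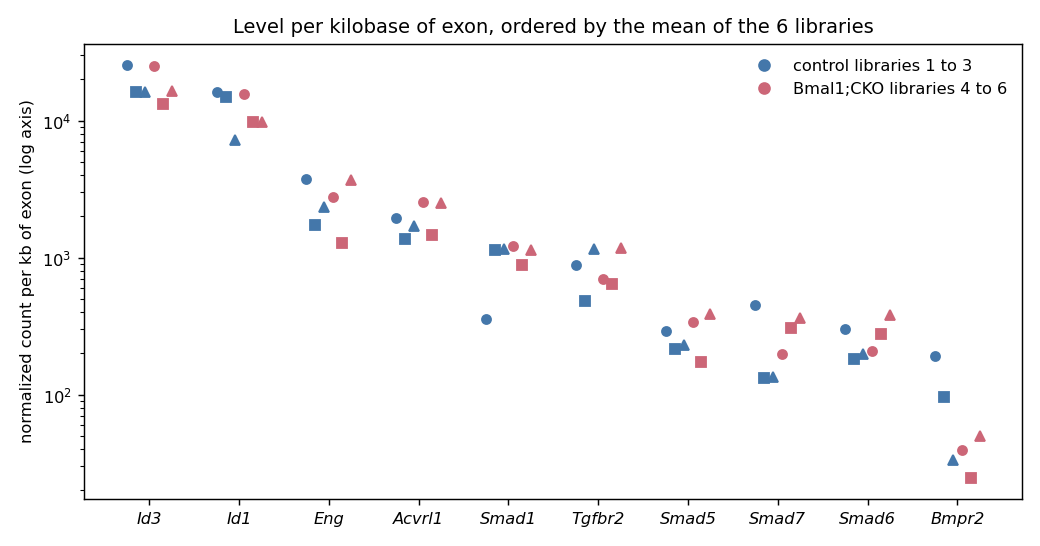
Normalized count per kilobase of exon (log axis) of the 10 genes in each of the 6 libraries, ordered from left to right by the mean, with control in blue and Bmal1;CKO in red, and with circle, square and triangle for the libraries of a group in the order of their numbers. Id3 and Id1 lie highest in every library and Bmpr2 lowest, while Smad5, Smad7 and Smad6 share 1 range.

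Of the 10 genes, Acvrl1, Id1 and Smad7 had no promoter window in the search. For Smad7 this does not show that RefSeq holds none. RefSeq promoter windows, from 250 bases before to 50 after the transcription start on GRCm38.p6, were used for 7 of the 10 genes. They were searched on both strands for the E-box CACGTG, which BMAL1 and CLOCK bind, for GGCGCC, a GC-rich motif of BMP-activated SMADs, and for GTCTAGAC, the palindromic SMAD motif, and none of the matches overlap. CACGTG was in 0 of the 7 genes, against 8.09% of the 27025 genes with a window (7.15% of all 32851 windows). GGCGCC was in 2 genes, Bmpr2 and Smad5 (13.4% of genes, 11.9% of windows), and GTCTAGAC in 1, Smad6 (0.248% of genes, 0.213% of windows). The windows of Bmpr2 and Smad6 are printed to show where these letters lie, Bmpr2 because it had the largest difference between the groups and Smad6 because it holds the rarest motif. Each run covers 150 bases before and 30 after the start, 5′ to 3′ on the strand of the gene, with the motif in capitals, which begins at -105 in Bmpr2 and at -4 in Smad6. The Bmpr2 run is chr1:59764129-59764308 on the forward strand and the Smad6 run chr9:64022030-64022209 on the reverse strand. A match is a description of the letters and shows no binding.
Bmpr2: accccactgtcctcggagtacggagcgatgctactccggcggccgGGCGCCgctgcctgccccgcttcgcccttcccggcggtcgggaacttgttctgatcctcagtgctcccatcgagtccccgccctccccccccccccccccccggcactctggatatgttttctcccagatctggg
Smad6: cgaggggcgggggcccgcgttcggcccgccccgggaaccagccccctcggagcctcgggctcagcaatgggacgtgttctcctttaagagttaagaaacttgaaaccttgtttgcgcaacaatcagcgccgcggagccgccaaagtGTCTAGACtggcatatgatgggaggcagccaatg

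The Bmal1;CKO and control libraries were then compared for each gene. All 10 genes had enough reads to be tested, at least 471 in every library. By limma-trend with Benjamini-Hochberg adjustment over the 20459 genes tested, 0 of the 10 passed an adjusted p of 0.05, and neither did any other gene (0.0% of genes tested). With DESeq2, the tool the study used, 67 of all genes and 0 of the 10 passed it. At an unadjusted p under 0.05 with limma-trend there were also 0 of 10, against 4.92% of all genes tested (1007 genes). The groups did not overlap for 0 of 10, against 11.2% of all genes. Bmpr2 was under an unadjusted p of 0.05 with edgeR (adjusted p = 1.00 with TMM scaling) and with DESeq2 (adjusted p = 0.645), and the other 9 genes were above it with both. Of all 20459 genes, 777 were under an unadjusted p of 0.05 with edgeR and TMM scaling. With edgeR and the size factors there were 792, and with DESeq2 1216. Means were higher in Bmal1;CKO for 6 genes and lower for 4 on the log2 scale by limma-trend, with a median log2 fold change of 0.12 beside 0.11 over all genes tested. With edgeR and DESeq2 the split was 5 and 5, with a median of 0.14 for the 10 genes beside -0.03 for all genes. The median of the absolute log2 fold change was 0.277 for the 10 genes and 0.474 for all genes. An exact permutation test of 3 libraries against 3 cannot give a p below 0.1. In such bulk libraries, fewer cells of a type and less RNA per cell cannot be told apart.

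**Figure D2:**
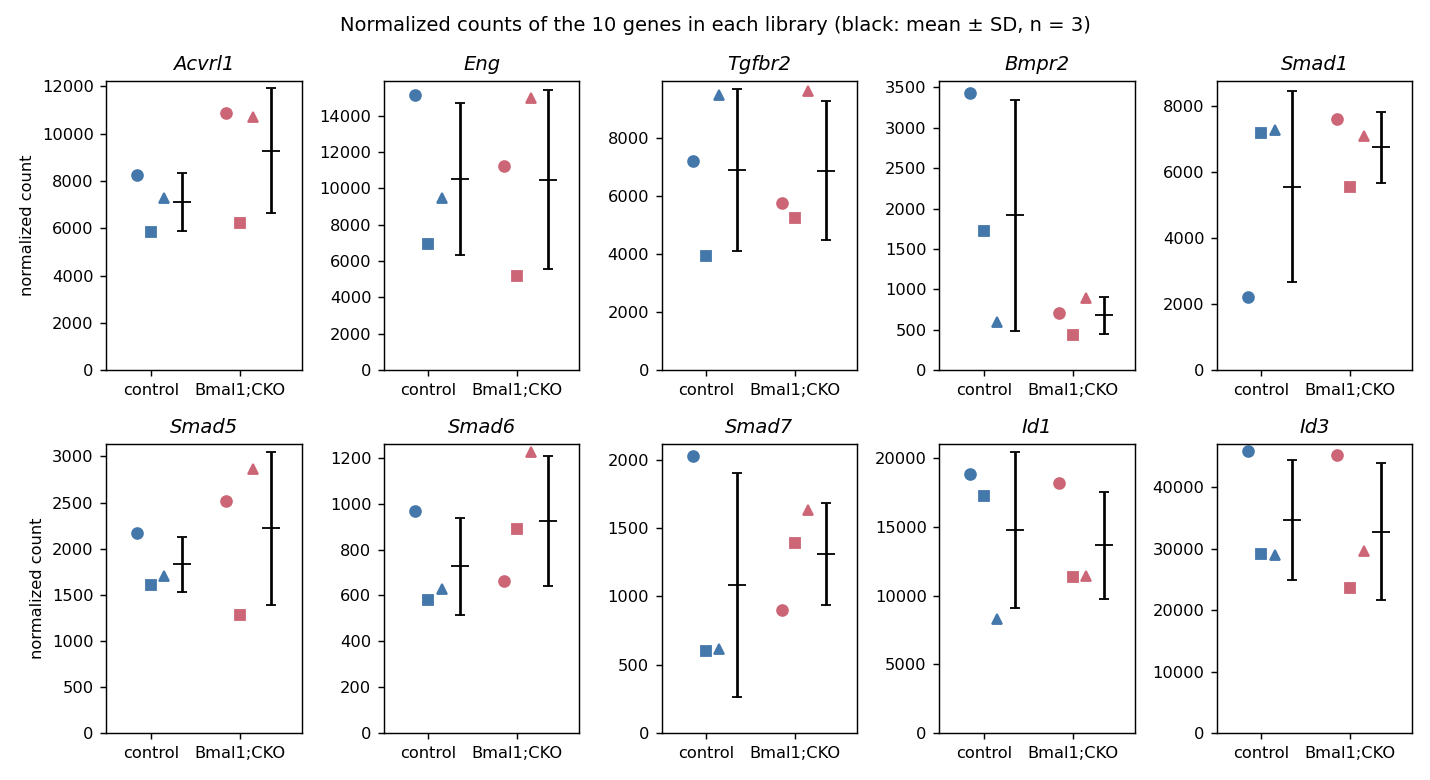
Normalized counts of the 10 genes in each library, with control (blue) and Bmal1;CKO (red) side by side, circle, square and triangle for the libraries of a group in the order of their numbers, and the mean ± SD (n = 3) in black, each axis starting at 0. The ranges of the groups overlap in all 10 panels, and Bmpr2 shows the widest control group, from 597 to 3429.

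Among the receptors, Acvrl1, the type I receptor for BMP9 and BMP10 on endothelium (ENSMUSG00000000530, chr15:101128522-101145336, forward strand, GRCm38), had 8258, 5829.5 and 7272 normalized counts in control libraries 1 to 3 and 10897, 6227 and 10716 in Bmal1;CKO libraries 4 to 6. Libraries 4 and 6 lay above every control, and library 5 lay inside the control range. The means were 7120.0 ± 1222 in control and 9279.9 ± 2646 in Bmal1;CKO (SD, n = 3), and the fold of 1.28 had a 95% interval of 0.786 to 2.07 (adjusted p = 0.883 from limma-trend). With each library left out in turn, the log2 fold change ran from 0.21 without library 4 to 0.62 without library 5. Its exons share 127 bases with the antisense gene Gm16031, which had at most 30 reads in a library, and whether the counting used strand is not given in the sources used here.

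Eng (ENSMUSG00000026814, chr2:32646595-32682669, forward strand) had 15124, 6949.6 and 9480.0 in control libraries 1 to 3 and 11238, 5197 and 14953 in Bmal1;CKO libraries 4 to 6. The 2 lowest values, in libraries 5 and 2, came from different groups, as did the 2 highest, in libraries 1 and 6. The means of 10518 ± 4185 and 10463 ± 4924 (SD, n = 3) were nearly equal, with a log2 fold change of -0.06 (SE 0.45, 95% interval -1.12 to 0.99, adjusted p = 0.983 from limma-trend). That interval reaches past a 2-fold decrease, so a decrease of that size was not excluded here. Eng shares 61 bases of exon with Fpgs on the other strand, a gene with at most 1503 reads in a library.

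Tgfbr2, the type II receptor for TGF-beta (ENSMUSG00000032440, chr9:116084293-116175360, reverse strand), had 7214, 3947 and 9482 in control libraries 1 to 3 and 5744, 5227 and 9614 in Bmal1;CKO libraries 4 to 6. The third library of each group was high and the ranges nearly coincided. The means were 6881 ± 2783 and 6862 ± 2397 (SD, n = 3), with a log2 fold change of 0.03 (SE 0.39, adjusted p = 0.990 from limma-trend), and the sign turned with edgeR, with DESeq2 and without control library 2 or Bmal1;CKO library 6.

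Bmpr2, the type II receptor that pairs with ACVRL1 for BMP9 (ENSMUSG00000067336, chr1:59763400-59879014, forward strand), differed most. It had 3429, 1726 and 597 in control libraries 1 to 3 and 706, 441 and 895 in Bmal1;CKO libraries 4 to 6. Control libraries 1 and 2 lay above every Bmal1;CKO library, while control library 3 lay between libraries 5 and 4, so the groups overlapped. The mean was 1917 ± 1426 in control and 681 ± 228 in Bmal1;CKO (SD, n = 3), a fold of 0.429 with a 95% interval of 0.150 to 1.23 (log2 fold change -1.22, SE 0.65, adjusted p = 0.883 from limma-trend). The two-sided exact permutation test gave p = 0.3. Without control library 3 the log2 fold change was -1.89 (adjusted p = 0.235 from limma-trend), and without control library 1 it was -0.63 (adjusted p = 0.763), so the size of the difference rested on single control libraries. The highest library was 7.77 times the lowest, the widest range of the 10 genes. Within a library, the level of Bmpr2 per kilobase was 0.0985, 0.0702 and 0.0195 times that of Acvrl1 in control libraries 1 to 3 and 0.0154, 0.0168 and 0.0198 times in Bmal1;CKO libraries 4 to 6, which put control library 3 with the Bmal1;CKO libraries.

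**Figure D3:**
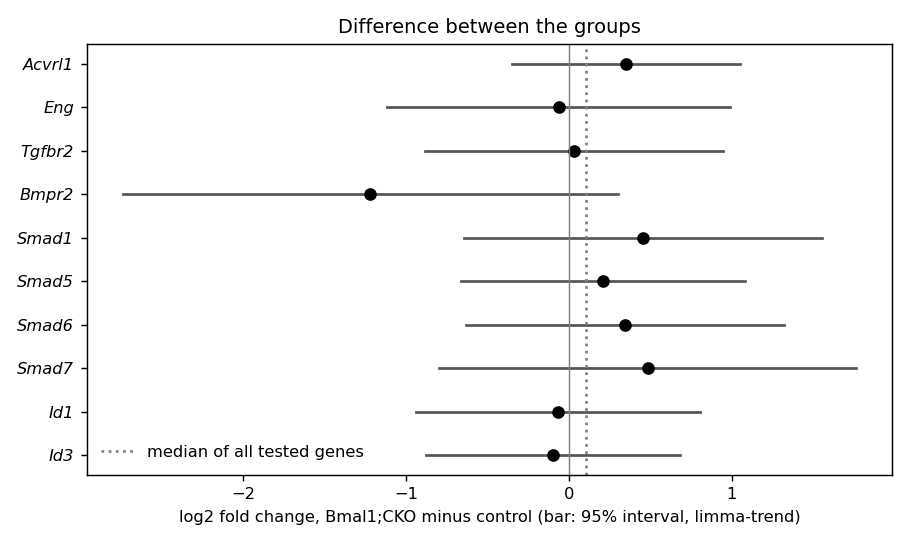
Log2 fold change of the 10 genes, Bmal1;CKO minus control, with the 95% interval of limma-trend as bars, and the median of all genes tested as a dotted line. All 10 intervals include 0, and Bmpr2 has the lowest estimate, -1.22, and the widest interval.

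Smad1 and Smad5, which carry the signal of ACVRL1 and other BMP type I receptors, were both higher in the mean of the Bmal1;CKO libraries. Smad1 (ENSMUSG00000031681, chr8:79338395-79399518, reverse strand) had 2221, 7179.7 and 7267 normalized counts in control libraries 1 to 3 and 7596, 5536 and 7103 in Bmal1;CKO libraries 4 to 6. Control library 1 stood apart at the bottom, and the other 5 libraries lay between 5536 and 7596. The log2 fold change of 0.46 (SE 0.47, adjusted p = 0.886 from limma-trend) became -0.11 without control library 1, so its direction rested on that library. Smad5 (ENSMUSG00000021540, chr13:56703010-56742377, forward strand) had 2173, 1607 and 1705 in control libraries 1 to 3 and 2518, 1284 and 2860.2 in Bmal1;CKO libraries 4 to 6. Libraries 4 and 6 were above every control and library 5 was below every control. The means were 1828 ± 302 and 2221 ± 829 (SD, n = 3), a fold of 1.16 with a 95% interval of 0.633 to 2.12 (adjusted p = 0.914 from limma-trend), and without library 6 the log2 fold change was -0.01. Smad1 had 2.94 to 5.29 times the level of Smad5 per kilobase in 5 libraries and 1.21 times in control library 1. Smad5 holds Gm27301, a gene of 100 bases with 0 reads in all 6 libraries.

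Smad6 and Smad7 encode the inhibitory SMADs, Smad6 acting mainly on BMP receptors and Smad7 on both branches. Smad6 (ENSMUSG00000036867, chr9:63953076-64022059, reverse strand) had 968, 580.0 and 629 in control libraries 1 to 3 and 662, 888 and 1226 in Bmal1;CKO libraries 4 to 6. Library 6 was highest and control library 1 was second, so the ranges overlapped. The means were 726 ± 211 and 925 ± 284 (SD, n = 3), a log2 fold change of 0.34 with a 95% interval of -0.64 to 1.32 (adjusted p = 0.895 from limma-trend). Smad7 (ENSMUSG00000025880, chr18:75367529-75395935, forward strand) had 2028, 602 and 613 in control libraries 1 to 3 and 900.1, 1393 and 1634 in Bmal1;CKO libraries 4 to 6. All 3 Bmal1;CKO libraries lay above control libraries 2 and 3, and control library 1 lay above all 3. The log2 fold change was 0.48 (SE 0.55, 95% interval -0.80 to 1.76, adjusted p = 0.888 from limma-trend), and without control library 1 it was 1.06 (adjusted p = 0.532 from limma-trend), with an unadjusted p under 0.05. Without control library 1, 1746 of all genes tested were under that p, against 1007 with all 6 libraries. Smad7 was under it in 1 of 16 other settings. Smad6 and Smad7 kept their direction whichever library was left out. Smad7 had between 0.690 and 1.48 times the level of Smad6 per kilobase.

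Id1 and Id3, the direct targets by which BMP signalling in endothelium is often read, had log2 fold changes near 0. Id1 (ENSMUSG00000042745, chr2:152736251-152737410, forward strand) had 18821, 17229.6 and 8319 in control libraries 1 to 3 and 18162, 11361 and 11424 in Bmal1;CKO libraries 4 to 6. The 3 Bmal1;CKO values lay inside the control range. The means were 14790.0 ± 5660.3 and 13649 ± 3908 (SD, n = 3), a fold of 0.956 with a 95% interval of 0.522 to 1.75 (adjusted p = 0.979 from limma-trend). Id3 (ENSMUSG00000007872, chr4:136143497-136145755, forward strand) had 45895, 29142 and 29027 in control libraries 1 to 3 and 45226, 23584 and 29561 in Bmal1;CKO libraries 4 to 6. The first library of each group was high, at about the same level, and the other 4 lay between 23584 and 29561. Its fold was 0.933 with a 95% interval of 0.543 to 1.60 (adjusted p = 0.957 from limma-trend). Id1 had 0.442 to 0.913 times the level of Id3 per kilobase, with group means of 0.663 ± 0.237 and 0.653 ± 0.0791 (SD, n = 3).

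The spread between libraries of 1 group was large beside these differences. The median residual SD of the 10 genes was 0.550 on the log2 scale, against 0.671 for all genes tested and 0.457 for the 9932 genes whose mean was at or above that of Smad6, the lowest of the 10. Control library 1 was the highest of the 6 libraries for 5 of the 10 genes and the lowest for Smad1. Control library 2 was the lowest for 4 genes and Bmal1;CKO library 5 for another 4, while library 6 was the highest for 3 and library 4 for 2. Control library 1 also held the largest endothelial sum, and library 5 the smallest.

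Patterns over the 6 libraries were set beside each other by the root mean square of the differences of log2 values, each gene centred on its own mean, as a description. Of the 10 genes, Acvrl1 and Smad5 were the closest pair (0.146) and Bmpr2 and Smad1 the farthest (1.51). Eng and Smad5 (0.264) and Id1 and Id3 (0.318) were the next closest pairs. Over 14701 protein-coding genes, Gna13 (0.105), Plagl2 (0.112) and 2310022A10Rik (0.117) were most like Acvrl1, where the median gene was at 0.662. Ogdh (0.0780), Serping1 (0.117) and Mmp14 (0.119) were most like Tgfbr2. Higd2a (0.0798), Camk2n1 (0.0891) and Dnajc15 (0.0993) were most like Id1. With 6 libraries, many genes come close to any pattern.

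Since the libraries differed in their levels of endothelial markers, each gene was also set relative to the endothelial markers, as its log2 level minus the mean log2 level of the 15 markers in the same library. The markers' mean was 12.67 ± 0.58 in control and 12.05 ± 0.68 in Bmal1;CKO (SD, n = 3, two-sided exact permutation p = 0.4), and this difference of -0.62 enters every relative value. Eng, itself an endothelial gene, had relative values of 0.55, 0.52 and 0.79 in control libraries 1 to 3 and 1.34, 1.01 and 1.18 in Bmal1;CKO libraries 4 to 6. On this scale the 2 groups of Eng did not overlap (0.62 ± 0.15 against 1.18 ± 0.17, SD, n = 3, two-sided exact permutation p = 0.1, the smallest possible). The SD of Eng over the 6 libraries narrowed from 0.61 to 0.34 with the subtraction and that of Bmpr2 from 1.09 to 0.70, while those of the other 8 genes widened. Narrowing was not particular to the endothelial markers. With microglial markers subtracted, Eng, Smad7 and Id3 narrowed, with Müller glia markers Acvrl1 and Smad1, and with rod markers Bmpr2.

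Relative to the markers, 9 of the 10 genes were higher in the mean of Bmal1;CKO, and the groups of 5 did not overlap, namely Acvrl1 (difference 0.97), Eng (0.56), Smad5 (0.83), Smad6 (0.96) and Smad7 (1.10). The share of all genes tested whose groups did not overlap was 9.28%, and 8.45% among genes at or above the lowest mean of the 10. However, 86.3% of all genes tested were higher on this scale, with a median difference of 0.72 beside 0.74 for the 10 genes. Bmpr2 was the exception among the 10, with a difference of -0.60 and overlapping groups. Tgfbr2 (0.65), Smad1 (1.07), Id1 (0.55) and Id3 (0.52) had overlapping groups. Relative to the microglial markers in place of the endothelial ones, 4 of 10 genes were higher in Bmal1;CKO and the groups of 0 genes were free of overlap. The microglial markers' own mean differed by 0.27 between the groups (two-sided exact permutation p = 0.6), which enters every value on that scale. The share of all genes on that scale is not given here, so these counts are not a result about the 10 genes. Which cells in the sorted fraction held these transcripts was not tested.

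**Figure D4:**
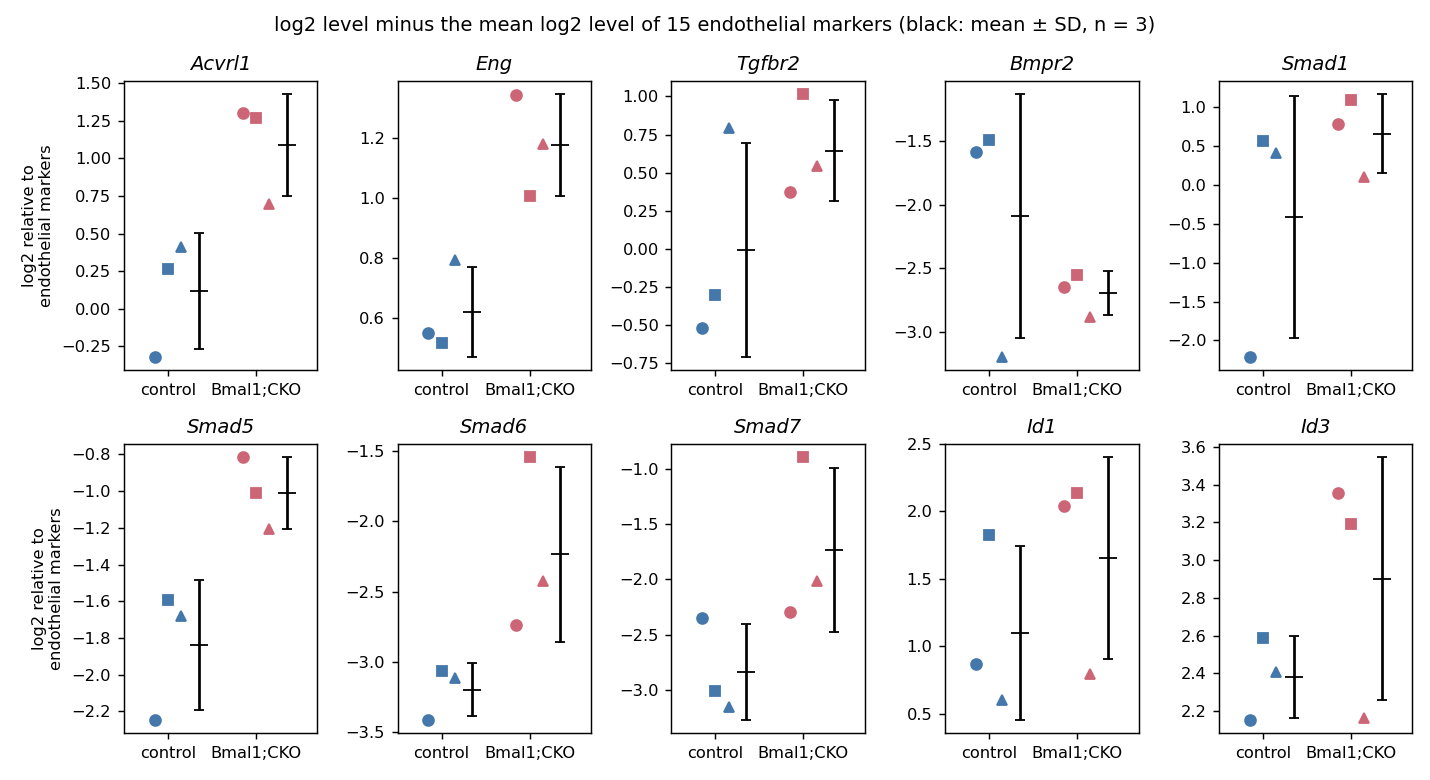
Log2 level of the 10 genes minus the mean log2 level of 15 endothelial markers in the same library, with control in blue, Bmal1;CKO in red, circle, square and triangle for the libraries of a group in the order of their numbers, and mean ± SD (n = 3) in black, on axes that do not start at 0. The Bmal1;CKO values of Acvrl1, Eng, Smad5, Smad6 and Smad7 lie above all control values, and most genes tested, 86.3%, had a higher mean on this scale.

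Another 50 genes of the pathway were followed by role. Of these, 46 were tested, 24 were higher and 22 lower, with 0 at an adjusted p under 0.05. An unadjusted p under 0.05 was found for 7 of 46, against 4.92% of all genes tested, and groups without overlap for 8 of 46, against 11.2%. Their median log2 fold change was 0.18 with limma-trend and -0.07 with edgeR and DESeq2. With edgeR under either scaling, 3 of the 7, Acvr1, Acvr2b and Fkbp1a, were under an unadjusted p of 0.05. Of all genes tested, 777 were under it with TMM scaling and 792 with the size factors.

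Among the ligands, Tgfb1, Tgfb2 and Inhbb, the beta B subunit of activins and inhibins, had the highest levels per kilobase (1391, 617 and 249), and their log2 fold changes of 0.41, -0.37 and 1.698 had adjusted p-values of 0.883 from limma-trend. Control library 1 stood apart for Inhbb, whose log2 fold change was 0.13 without it and 0.70 with edgeR and TMM scaling. Bmp6 had 0, 0.928 and 186 normalized counts in control libraries 1 to 3 and 347, 196 and 127 in Bmal1;CKO libraries 4 to 6 (adjusted p = 0.883 from limma-trend). Inhba, the beta A subunit, had 0, 0 and 96.5 in control and 215, 111 and 97.2 in Bmal1;CKO (adjusted p = 0.883 from limma-trend). Both were near 0 in control libraries 1 and 2 and not in library 3, and their unadjusted p was under 0.05 with limma-trend and above it with edgeR. The ligands of ACVRL1, which circulate in blood, had few or no reads. Gdf2, which encodes BMP9, had 35.2 normalized counts in library 4, 0.864 in library 5 and 0 in the other 4, and Bmp10 had 0 in all 6, where 3 reads, or 2.14 to 4.22 normalized counts, are the limit that a count of 0 allows.

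Of 8 other receptors tested, 1 was higher and 7 were lower in the mean of the Bmal1;CKO libraries, where 56.6% of all genes tested were higher. The groups of 4 of the 8 did not overlap, against 11.2% of all genes. For 3 of them, Acvr1, Acvr2a and Acvr2b, the unadjusted p of limma-trend was under 0.05, as for 4.92% of all genes, and for each of the 4 the two-sided exact permutation test gave p = 0.1, the smallest it can give. Acvr1, the BMP type I receptor ALK2, had 1881, 968 and 919 in control libraries 1 to 3 and 440.2, 597 and 661 in Bmal1;CKO libraries 4 to 6, a log2 fold change of -1.09 (SE 0.43, adjusted p = 0.883 from limma-trend). Acvr2a, a type II receptor shared by activins and BMPs, had 599, 884 and 579 in control and 194, 357 and 373 in Bmal1;CKO (log2 fold change -1.19, SE 0.50, adjusted p = 0.883 from limma-trend). Its relative Acvr2b was the 1 receptor in the other direction, with 2654, 2539.8 and 2788 in control and 3724, 5919.9 and 4429 in Bmal1;CKO (log2 fold change 0.79, SE 0.27, adjusted p = 0.883 from limma-trend). Bmpr1a, the BMP type I receptor ALK3, named here after its values were seen, had 631, 919 and 623 in control and 305, 500.1 and 501 in Bmal1;CKO (adjusted p = 0.883 from limma-trend). Acvr1 and Bmpr1a use Smad1 and Smad5 as Acvrl1 does. Over 16 other settings, Acvr2b had p under 0.05 in 15, Acvr1 in 12 and Acvr2a in 8. These settings reuse the same libraries, and the 3 genes were named for their p in limma-trend, so the counts are no independent support. Across the settings, from 318 genes (without library 5) to 2332 genes (without control library 3) of all those tested were under that p. Tgfbr1, the partner of Tgfbr2, was at 6689.6, 1853 and 3326 in control and 3392, 3602 and 2950.0 in Bmal1;CKO, with a log2 fold change of -0.07 (adjusted p = 0.982 from limma-trend). Relative to the endothelial markers, 4 of the 8 receptors were higher and 4 lower, with a median difference of 0.15. On that scale the groups of 1 of the 8 did not overlap. Over all genes tested, 86.3% were higher on it, the median difference was 0.72 and 9.28% were without overlap.

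Of the other SMADs, the shared partner Smad4 had a log2 fold change of -0.17, and Smad2 and Smad3, which carry the TGF-beta signal, had 0.59 and -0.22 (adjusted p = 0.928, 0.883 and 0.933 from limma-trend). Id2 and Id4, the other ID genes, were at -0.21 and -0.69 (adjusted p = 0.909 and 0.883 from limma-trend), and per kilobase Id2 had a level of 4744, below Id1 and Id3 and above the other 8 genes. All 4 ID genes had log2 fold changes below 0 that did not pass the test, and without control library 1 those of Id1, Id2 and Id3 were above 0.

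Of 14 regulators, 9 were higher and 5 lower, and 2 of the 14, Fkbp1a and Fst, had both an unadjusted p under 0.05 (4.92% of all genes) and groups without overlap (11.2% of all genes). Fkbp1a, which encodes FKBP12, a protein that holds type I receptors inactive, had the highest level per kilobase, with 32478, 30058 and 26405 normalized counts in control libraries 1 to 3 and 19208, 12731 and 22039.5 in Bmal1;CKO libraries 4 to 6. Its groups did not overlap (log2 fold change -0.75, SE 0.28, adjusted p = 0.883 from limma-trend). Fst, which encodes follistatin, an antagonist of activins, had 6.15, 49.2 and 5.00 in control and 209.6, 68.2 and 137 in Bmal1;CKO, again without overlap (log2 fold change 3.29, SE 1.17, adjusted p = 0.883 from limma-trend). The pseudoreceptor Bambi (-0.24) and the SMAD co-repressor Ski (0.32) had overlapping groups. Of 10 further targets, 6 were higher and 4 lower, and 0 had an unadjusted p under 0.05. Pmepa1, Gja4 and Tsc22d1, the highest of them per kilobase, had log2 fold changes of 0.09, 0.26 and -0.32 (adjusted p = 0.977, 0.909 and 0.883 from limma-trend).

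**Figure D5:**
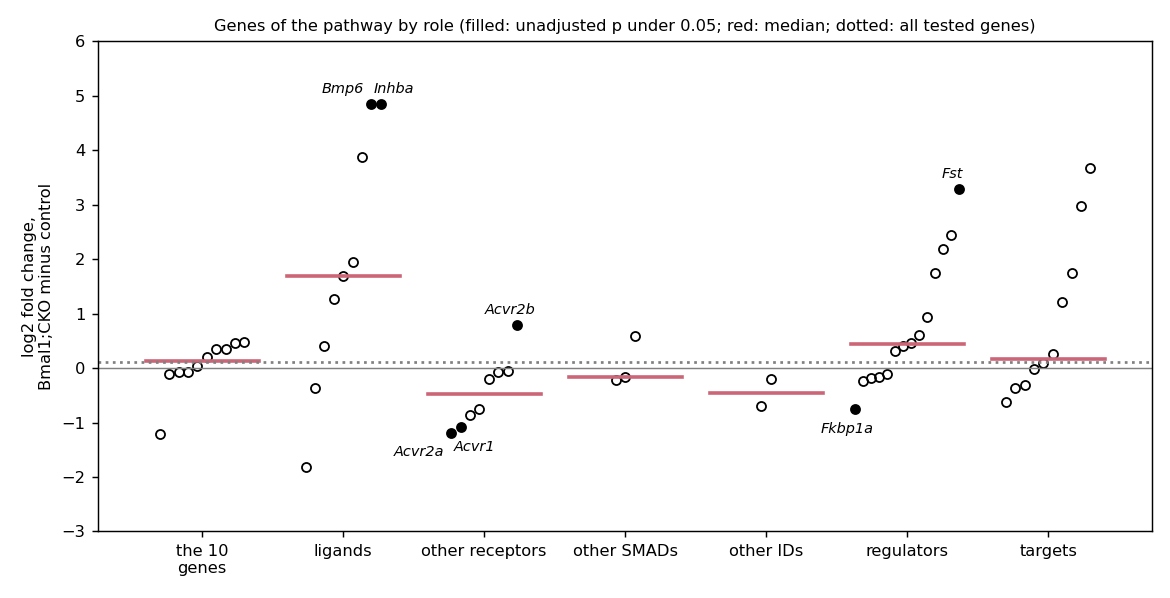
Log2 fold change, Bmal1;CKO minus control, of the 10 genes and of the 46 other pathway genes tested, by role, with each gene as a circle (filled where the unadjusted p of limma-trend was under 0.05), the median of each role in red and the median of all genes tested as a dotted line. The 10 genes lie within 0.48 of 0 apart from Bmpr2, and 7 of the 8 other receptors lie below 0.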

How the data were processed

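RNA of VECs sorted from P7.5 retinas of 3 control and 3 Bmal1;CKO animals was amplified and sequenced. Per the submitters' processing notes and the study's methods, reads were checked with FastQC, trimmed with Trimmomatic, aligned with Bowtie to mm10 (GRCm38), counted with featureCounts and analysed with DESeq2. Strand use and the versions of these tools are not given in the sources used here. The authors deposited 1 table, whose values are a signal: counts divided by a DESeq2 size factor, here called normalized counts. Its columns name the genotype only, so each was used as a replicate of its group. Columns with the authors' own comparison (fold change, p-value, adjusted p-value) were not used.

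Multiplying by the size factor (0.711 to 1.40) gave whole reads, within 0.01 read, for 100.0% of values. The 20459 genes that reached 10 reads in 3 or more libraries were tested with limma-trend (limma 3.58.1, R 4.3.3) on log2(normalized count + 1), so that the fold changes of low genes depend on the pseudocount, with genotype as the only term and Benjamini-Hochberg adjustment. Single values were compared by exact two-sided permutation over 10 splits. Alternatives were edgeR 4.0.16 with TMM scaling or the size factors, limma-voom and DESeq2 1.42.0 on the recovered reads, pseudocounts of 0.5 and 10, log2 CPM, other filters, no variance trend, and each library left out in turn. The share of genes without overlap among genes as high as the 10 was added after seeing the data. Scripts were tested on simulated data.

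Coordinates and exon lengths are from GENCODE M21, which holds 55141 of 55487 identifiers, and promoters from RefSeq. The 10 genes and all lists were chosen with earlier results of these data known. Besides the 10 genes, the text names the 3 highest genes of each role per kilobase and any at an unadjusted p under 0.05, the 3 genes most like Acvrl1, Tgfbr2 and Id1, and Arntl. Bmpr1a, Gdf2, Bmp10 and Smad9 were named after their values were seen. P-values measure the spread between 3 animals a group. A limit from a count of 0 covers counting error only.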

Additional observations from a re-analysis of the deposited data

How the results depend on the processing

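No paired analysis was possible because the names of the deposited columns give a genotype and no numbered sample of the labels, and the labels do not say that a number marks a shared litter, batch or day. Acvrl1, Bmpr2, Smad6 and Smad7 kept the direction of their difference in all 16 alternatives, and 0 of the 10 genes reached an adjusted p under 0.05 in any of them, the lowest being 0.235 for Bmpr2. Tgfbr2 went to -0.0032 with edgeR and TMM scaling, -0.00403 with edgeR and the size factors and -0.00403 with DESeq2. With each library left out in turn, log2 fold changes ran from -0.39 to 0.38 for Eng, -0.32 to 0.31 for Tgfbr2, -0.11 to 0.74 for Smad1, -0.0114 to 0.57 for Smad5, -0.44 to 0.15 for Id1 and -0.36 to 0.12 for Id3. Outside the 10 genes the same ranges were -0.51 to 0.41 for Tgfbr1, -0.56 to 0.24 for Smad3, -0.45 to 0.0947 for Smad4, -0.53 to 0.0423 for Id2, -0.059 to 0.61 for Ski, -0.0717 to 0.60 for Gja4, -0.21 to 0.63 for Pmepa1 and -0.49 to 0.0291 for Arntl. Pmepa1 was at -0.072 with edgeR and TMM scaling, -0.0678 with the size factors and -0.0678 with DESeq2. The cause of these changes was not tested.

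The count of all genes at an adjusted p under 0.05, 0 in limma-trend, was 61 without the variance trend, 67 with DESeq2, 1 with a filter of at least 1 read in total, 1 where each library had to hold 10 reads, and 0 to 6 with 1 library left out. Of the other pathway genes, 24 were higher, and 11 where each library had to hold 10 reads, which tests fewer genes. Their median log2 fold change of 0.18 was -0.17 with that filter, -0.07 with edgeR (TMM -0.0688, size factors -0.0670) and with DESeq2 (-0.0669), and -0.0514 to 0.254 with 1 library left out. Relative to microglial markers, 4 of the 10 genes were higher, against 9 relative to endothelial markers. Between the groups, the mean of the microglial markers differed by 0.27 and that of the endothelial markers by -0.62. The share of all genes is given for the endothelial markers only. With the median of the endothelial markers in place of their mean, the groups of 4 genes did not overlap, Smad7 no longer among them. The 9.28% of all genes without overlap belongs to the mean of the markers, and no such share is given for their median. With 3 libraries a group, a 2-fold change lies within the 95% interval of 7 of the 10 genes. Each of the 10 had at least 471 reads in every library, and since the RNA was amplified these reads are not independent molecules.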

Other observations

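Smad9, the third SMAD of the BMP branch, had 0, 0 and 2.86 normalized counts in control libraries 1 to 3 and 0, 30.2 and 23.1 in Bmal1;CKO libraries 4 to 6 and was too low to be tested. Pericyte markers summed to 6563, 12850.5 and 59349 normalized counts in control libraries 1 to 3 and to 12451, 8347 and 11013 in Bmal1;CKO libraries 4 to 6. Control library 1, which had the lowest pericyte sum, also had the lowest Smad1, Inhbb (44.3, against 1044 to 1613 in the other 5) and Smad2 (1854, against 3239 to 4621). The same library had the lowest sums of astrocyte (5757) and ganglion cell (16203) markers and the fewest genes with a read (21598). Control library 3, with the highest pericyte sum, had 7267 for Smad1 and 1263 for Inhbb, inside the range of the other libraries. Whether these values share a source was not tested.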
